A study of Carica papaya with 15 samples.

Results

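A group of 171 genes was lower in the pulp of ethylene-treated papaya than in that of control fruit, both at the end of 12 h in the gas and 12 h after its removal. They were chosen by 4 criteria out of the 20332 genes of the expression table, on log2 values after adding 1. The highest of the 6 treated libraries lay below the lowest of 8 control libraries. The T12h mean and the T24h mean each lay at least 1.5 below the mean of these 8 controls, and the T12h and T24h means were less than 1.5 apart. The mean over all 15 libraries was at least 20 normalized counts. A ninth control library, C24h B, entered only the last criterion. The members were selected on these measured values, so the size of the difference and the separation of treated and control fruit are described here and carry no test.

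T12h fruit had been held for 12 h in a closed system with ethylene at 100 ppm, and T24h fruit had had the same exposure followed by 12 h without the gas. C0h, C12h and C24h fruit had no added ethylene and were sampled at 0, 12 and 24 h. All were mature fruit of the "Golden" papaya (Carica papaya), peeled and freed of seeds, and came from 3 harvests, named A, B and C here, each of which gave 1 library to each of the 5 groups. At least 5 fruit were pooled for a library, and the replicates are therefore pools.

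Papaya is a climacteric fruit: ripening tissue makes ethylene, and ethylene in turn induces more of it. In Arabidopsis the gas binds to receptors of the endoplasmic reticulum, which releases EIN2 and stabilizes transcription factors of the EIN3 type, and their targets include activators as well as repressors of transcription. In ripening pulp, chloroplasts give way to chromoplasts, growth has ended and the wall that was built during growth is taken apart.

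Values are normalized counts, that is, reads of a gene divided by a size factor of the library, and a read was worth between 0.713 and 1.51 of them. Libraries held 7999275 (C24h B) to 12542678 (C0h C) reads. The summed normalized counts were 10874253 to 13283883 in treated libraries, 8314364 to 9593068 in the 8 controls and 12070774 in C24h B, while the median difference of treated and control means was -0.01 on the log2 scale over the 15270 genes that averaged at least 5 normalized counts, called here the genes tested. The 171 genes took 0.0506 to 0.133% of the normalized counts of a treated library, 0.307 to 0.708% of those of the 8 controls and 0.0941% of those of C24h B. In pooled pulp, fewer cells of a kind and less RNA per cell cannot be told apart. Of the 171 genes, 164 were found in the current reference annotation, 160 of them protein coding, and 38 had a gene symbol (22.2%, against 24.0% of the genes tested). The other 133 are known by identifier alone.

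The separation itself was not rare, since 990 of 15270 genes (6.48%) had all 6 treated libraries below the 8 controls. Among the 171 genes the log2 difference of treated and control means ran from -4.26 to -1.55, with a median of -2.12. As a ratio of mean normalized counts, control fruit had 2.82 to 21.8 times the treated level (median 4.34), and 107 genes differed by at least 4-fold and 17 by at least 8-fold. The treated means ran from 3.47 to 1075 normalized counts (median 27.8) and the control means from 29.6 to 3767 (median 123). The gap between the highest treated and the lowest control library was between 0.01 and 2.07 on the log2 scale (median 0.56). It was widest for LOC110823232, LOC110811123 and PUM12. The treated libraries therefore stood apart from the controls by a wide margin for some of these genes and by almost nothing for others.

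**Figure D1:**
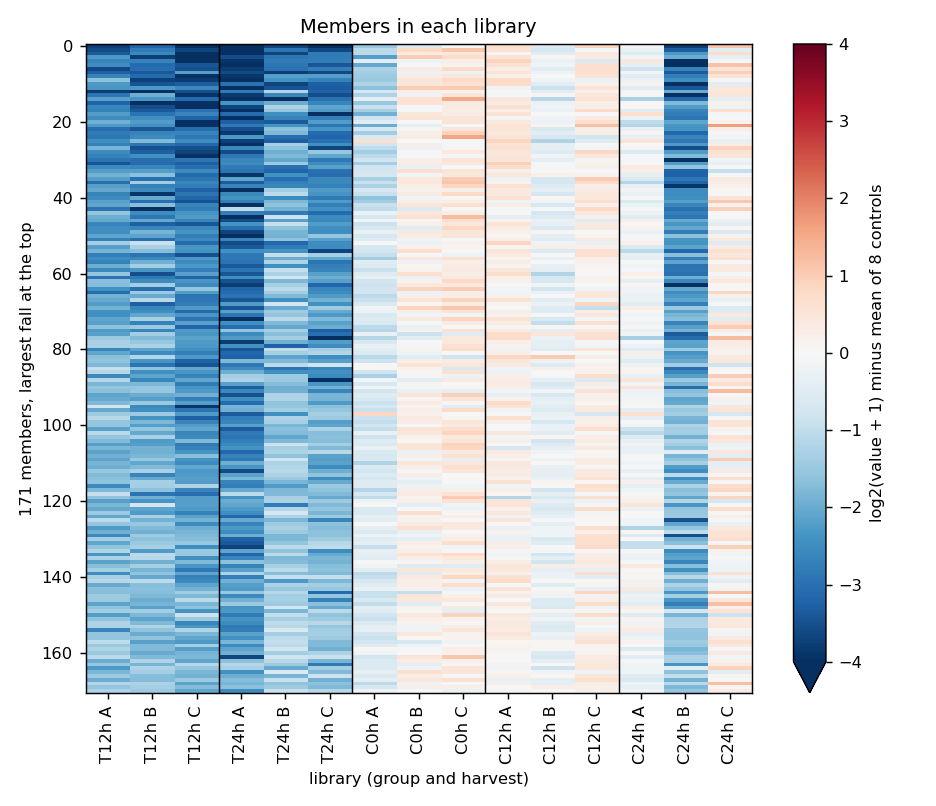
Each row is 1 of the 171 genes, ordered by the size of the difference, and each column 1 of the 15 libraries, treated groups on the left. Colour gives log2(value + 1) minus the mean of 8 controls, with values below -4 drawn in the darkest blue. The 6 treated columns and the column of C24h B are blue, and C0h A is the bluest of the other controls by its median.

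The largest difference was that of a regulator of RNA. PUM12 (LOC110809562) encodes a protein of the Pumilio family, which binds messenger RNA and in other organisms represses its translation. It had 7.80, 11.9 and 2.22 normalized counts in T12h and 1.21, 8.05 and 5.77 in T24h, against a lowest of 39.7, a median of 112 and a highest of 250 in the 8 controls. The mean was 6.16 ± 3.99 in treated libraries (SD, n = 6) and 134 ± 75.2 in controls (SD, n = 8), a log2 difference of -4.26. The highest treated library, T12h B, held 30.1% of the lowest control, C0h A. RDR1 (LOC110823608), an RNA-dependent RNA polymerase that makes double-stranded RNA in antiviral silencing, had 32.3, 37.8 and 13.3 in T12h and 7.26, 22.1 and 13.8 in T24h, against 75.6, 127 and 169 as the lowest, median and highest control (log2 difference -2.67). AGO10 (LOC110815850) is an argonaute that in Arabidopsis binds microRNAs of the shoot meristem. It had 129, 129 and 110 in T12h and 84.7, 143 and 142 in T24h, against 330, 378 and 593 in controls (-1.76). AGO10 was the most even of the 3, with treated libraries within 1.69-fold of each other.

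Among genes of the plastid, GLK2 (LOC110812009), a transcription factor that in Arabidopsis drives chloroplast development, had 5.57, 3.98 and 5.55 normalized counts in T12h and 3.63, 16.1 and 9.23 in T24h, against 32.1, 57.4 and 73.4 as the lowest, median and highest of the 8 controls. Its log2 difference was -2.82. PSAN (LOC110823371), a subunit of photosystem I, had 20.1, 11.9 and 14.4 in T12h and 10.9, 17.1 and 4.61 in T24h, against 25.2, 110 and 155 in controls (-2.92). The lowest control of PSAN was C0h A, and the next lowest control, C24h C, had 94.6. SIG2 (LOC110812836), a sigma factor of the plastid RNA polymerase, had 36.8, 19.9 and 19.99 in T12h and 18.1, 21.1 and 11.5 in T24h, against 55.7, 75.7 and 109 (-1.89). All 3 genes thus remained low in each treated library of both times, GLK2 least so in T24h B.

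Light perception and auxin were represented by genes of modest level. PHYD (LOC110821280), a phytochrome, averaged 9.07 ± 4.73 in treated libraries (SD, n = 6) and 44.1 ± 14.8 in controls (SD, n = 8), a log2 difference of -2.21. NPH3 (LOC110812547), which relays the signal of phototropins in Arabidopsis, had 8.91, 8.95 and 5.55 in T12h and 2.42, 8.05 and 5.77 in T24h, against a lowest of 29.2, a median of 39.7 and a highest of 62.7 in controls (-2.50). Its gap of 1.60 between the groups was among the wider ones. ABCB19 (LOC110820091), an exporter of auxin, had 11.1, 19.9 and 9.996 in T12h and 8.47, 16.1 and 5.77 in T24h, against 29.5, 49.7 and 91.2 in controls (-2.19). IAA11 (LOC110811568), a repressor of auxin responses of the Aux/IAA family, averaged 7.67 ± 3.98 in treated libraries and 39.4 ± 23.9 in controls (-2.18), and its groups lay only 0.06 apart because C24h A held 12.6. The auxin genes therefore differed in how widely they separated: the highest treated library held 67.3% of the lowest control for ABCB19 and 95.9% for IAA11.

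The cell wall members included genes named for building pectin and for modifying it. GAE6 (LOC110807955), a UDP-glucuronate epimerase that supplies the galacturonate of pectin, had 725, 1020 and 224 normalized counts in T12h and 157, 213 and 334 in T24h, against 1310, 1772 and 3381 in the 8 controls (log2 difference -2.42). TBL38 (LOC110822119), of a family tied to the acetylation of wall polysaccharides, had 230, 237 and 192 in T12h and 38.7, 106 and 115 in T24h, against 369, 1312 and 2423 in controls (-3.14). The T24h mean lay below the T12h mean by 1.29 for GAE6 and by 1.47 for TBL38 on the log2 scale. TBL38 was lower at T24h in each harvest, and GAE6 in harvests A and B but not in C. PME31 (LOC110820172), a pectin methylesterase, averaged 175 ± 70.0 in treated libraries (SD, n = 6) and 708 ± 299 in controls (SD, n = 8), a log2 difference of -2.01. SKS2 (LOC110823552) resembles SKU5, a wall-associated protein of directional root growth in Arabidopsis, and averaged 9.93 ± 4.65 in treated libraries and 39.4 ± 14.2 in controls (-1.94).

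Other members act in transport or in sensing of water and ions. PIP2;8 (LOC110818922), an aquaporin of the plasma membrane, had 101, 22.9 and 22.2 normalized counts in T12h and 10.9, 60.4 and 48.4 in T24h, against 114, 308 and 561 as the lowest, median and highest control (log2 difference -3.17). T12h A thus came close to the lowest control, C0h A, while the other 5 treated libraries held 60.4 or less. CBL10 (LOC110822022), a calcium sensor of salt tolerance in Arabidopsis, had 76.9, 49.7 and 40.0 in T12h and 19.4, 57.3 and 39.2 in T24h, against 105, 453 and 961 (-3.29). MTP11 (LOC110824061), a manganese transporter, averaged 16.4 ± 2.94 in treated libraries and 112 ± 45.6 in controls (-2.60), one of the tighter treated groups. UMAMIT6 (LOC110822264), of a family of amino acid transporters, differed by -2.15, and NAKR3 (LOC110809903), with a heavy-metal-associated domain, by -2.11. HK1 (LOC110822559), a histidine kinase regarded in Arabidopsis as a sensor of osmotic stress, was at 9.86 ± 2.95 in treated libraries and 33.9 ± 14.4 in controls (-1.63).

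Among transcription factors of growth, SRS6 (LOC110807528), of the SHI-related family that in Arabidopsis promotes auxin synthesis, had 72.4, 74.6 and 43.3 normalized counts in T12h and 25.4, 64.4 and 61.1 in T24h, against 229, 400 and 593 as the lowest, median and highest control (log2 difference -2.92). Its gap of 1.61 was wide. IDD12 (LOC110814804), a zinc finger protein of the INDETERMINATE DOMAIN family, averaged 36.4 ± 8.20 in treated libraries (SD, n = 6) and 207 ± 79.3 in controls (SD, n = 8) (-2.38). LBD25 (LOC110810229), of the LATERAL ORGAN BOUNDARIES DOMAIN family, averaged 7.77 ± 4.74 in treated libraries and 31.4 ± 9.83 in controls (-2.03).

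The genes of metabolism included the most abundant members with a symbol, on a scale of counts that is not corrected for gene length. FAC1 (LOC110820890), an AMP deaminase of purine metabolism, had 777, 777 and 504 normalized counts in T12h and 594, 1948 and 1407 in T24h, against 2403, 3364 and 6630 as the lowest, median and highest control (log2 difference -2.00). ATTPS6 (LOC110823585), of the trehalose-phosphate synthase family of sugar signalling, had 365, 187 and 102 in T12h and 169, 941 and 513 in T24h, against 1200, 2262 and 3509 (-2.94). Both were higher at T24h than at T12h in harvests B and C, ATTPS6 by 1.18 on the log2 scale of the group means. IP5PII (LOC110822208), an inositol polyphosphate 5-phosphatase that ends inositol phosphate signals, had 311, 457 and 244 in T12h and 117, 217 and 181 in T24h, against 820, 1301 and 1568 (-2.37), and was lower at T24h in each harvest. FAB1D (LOC110813237), a kinase of phosphatidylinositol 3-phosphate in endomembranes, differed by -1.74. NDB1 (LOC110816953), an external NAD(P)H dehydrogenase of mitochondria, differed by -2.37, THFS (LOC110809536), which loads formate onto tetrahydrofolate, by -2.00, and PPC4 (LOC110824156), a phosphoenolpyruvate carboxylase, by -1.74.

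BETA-VPE (LOC110817536), a vacuolar processing protease, had 159, 175 and 182 normalized counts in T12h and 61.7, 298 and 196 in T24h, against 445, 665 and 1342 in the 8 controls (log2 difference -2.10). UBP15 (LOC110812548), a ubiquitin protease that promotes organ growth in Arabidopsis, had 59.0, 64.6 and 49.98 in T12h and 84.7, 280 and 119 in T24h, against 296, 524 and 633 (-2.36). UBP15 was higher at T24h than at T12h in every harvest, and in T24h B it was only just below the lowest control, C12h B. Calmodulin-binding proteins were among the rest: NPGR1 (LOC110808456), named after a gene of pollen germination, differed by -3.12 and IQD31 (LOC110819803), of the IQ67 domain family, by -2.27. TRM19 (LOC110807284), of a family that recruits TON1 to microtubules in Arabidopsis, differed by -1.85, HVA22A (LOC110810492), of a stress-induced membrane protein family, by -1.86, and ERD3 (LOC110825064), named for its early response to dehydration in Arabidopsis, by -1.78. The last symbol, TRM11 (LOC110816213), was at -1.83.

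**Figure D2:**
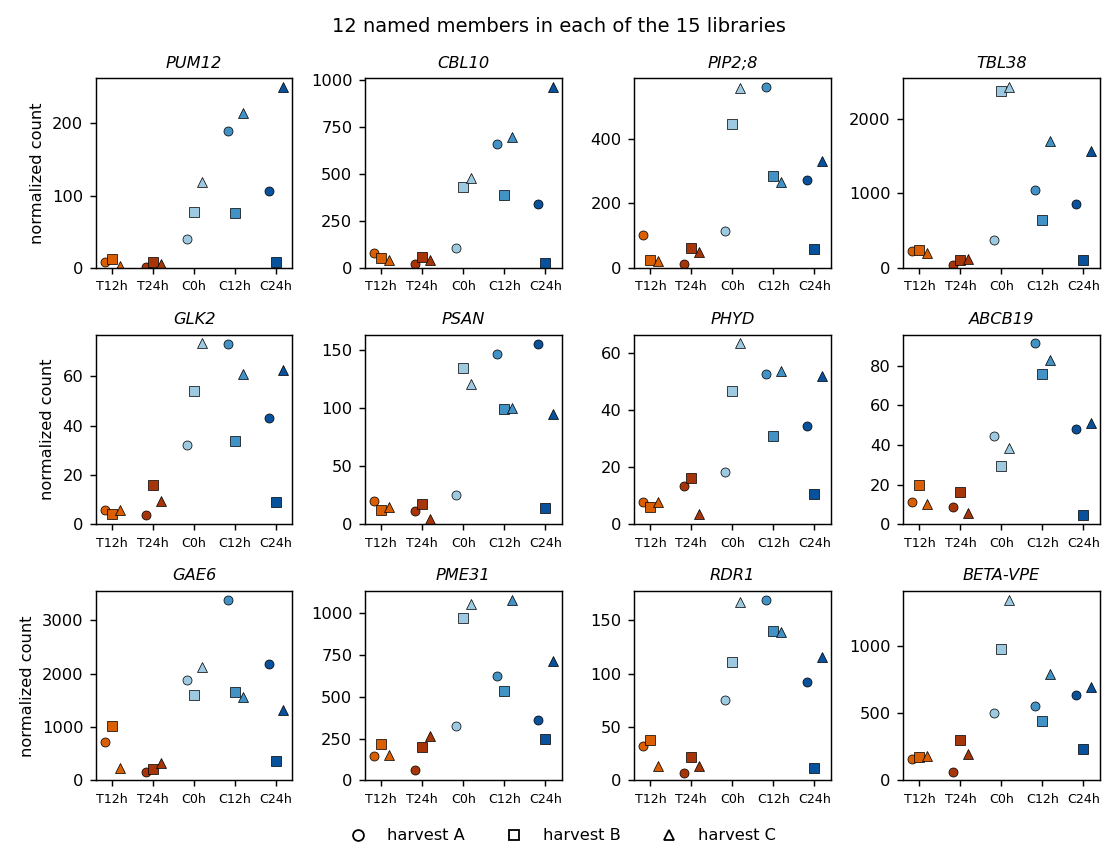
Normalized counts of 12 genes in each of the 15 libraries, with treated groups left of the control groups and 1 marker shape per harvest; each axis starts at 0. All 6 treated points of a gene lie below the control points other than C24h B, whose dark blue square lies among the treated ones, as for PUM12 at 7.54 and CBL10 at 24.1.

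Members without a symbol included 6 of the 8 largest differences. LOC110811123 had 62.4, 108 and 57.8 normalized counts in T12h and 9.68, 99.6 and 60.0 in T24h, against 360, 671 and 1636 as the lowest, median and highest control (log2 difference -3.79). LOC110816462 (-3.60), LOC110822295 (-3.43), LOC110823232 (-3.32), LOC110807172 (-3.29) and LOC110821832 (-3.29) followed. For LOC110822295 the separation rested on a small step, since T12h A held 15.6 and the lowest control, C0h A, 16.8, while the other 7 controls held 61.6 or more. The most abundant member without a symbol was LOC110815279, with 1605, 1671 and 585 in T12h and 906, 705 and 977 in T24h, against 2118, 3515 and 5752 (-1.78). LOC110814411, LOC110819594 and LOC110823305 also averaged above 1000 normalized counts in controls, with log2 differences of -2.58, -1.91 and -2.29. In all, 9 members had a control mean of at least 1000 and 101 one of at least 100.

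The time after the gas changed the members little as a group. The median difference from controls was -2.14 in T12h and -2.16 in T24h, and 87 of the 171 genes were lower in T24h than in T12h. For 112 genes the T12h and T24h means lay within 0.5 of each other on the log2 scale. Another 6 genes were lower by at least 1 in T24h, with TBL38, GAE6 and LOC110822008 in front, and 11 were higher by at least 1, up to 1.49 for LOC110821974. The rule allowed no difference of 1.5 or more, so this span is set by the choice of genes. The ethylene difference at 24 h was set against that at 12 h (limma, an interaction term over all 15270 genes). An adjusted p of 0.05 was passed by 0 members and by 9 of all genes tested (0.0589%). An unadjusted p of 0.05 was passed by 8 of 171 members and by 2271 of the 15270 genes. The smallest adjusted p among members was 0.255 by limma. The rule limited the T24h minus T12h difference, so these counts of members too are a description. For comparison, 130 other genes that were at least 1.5 below controls at T12h had come back up by at least 1.5 at T24h.

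**Figure D3:**
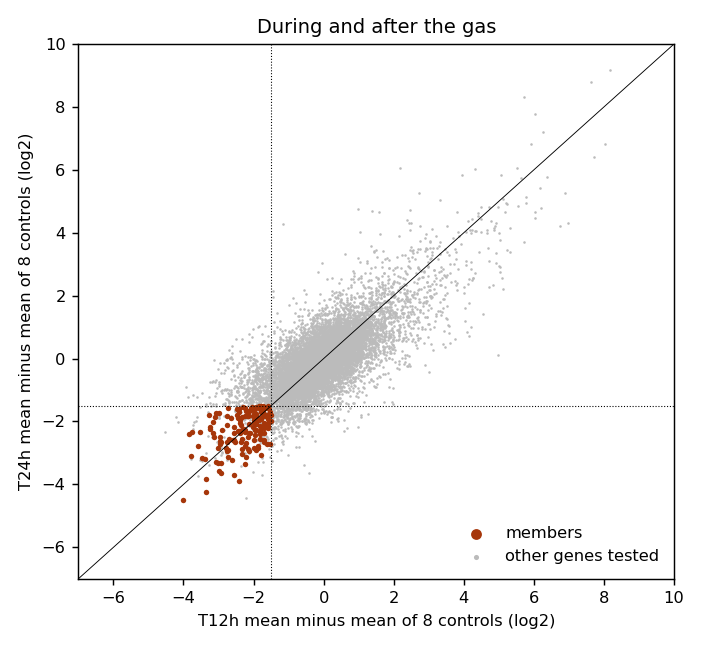
The log2 difference of the T24h mean from the mean of 8 controls (vertical) is plotted against that of the T12h mean (horizontal) for 15270 genes, the 171 genes in red; dotted lines stand at -1.5 and the solid line marks equal differences. The red points straddle the line of equal differences, with medians of -2.14 at T12h and -2.16 at T24h.

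Treated libraries of the 3 harvests were not alike. Relative to the control mean, the median member was at -2.02, -2.01 and -2.45 in T12h A, B and C and at -2.72, -1.61 and -2.15 in T24h A, B and C, on the log2 scale. T24h B was the highest treated library for 83 of the 171 genes, against 21.5% of all genes tested, and T24h A the lowest for 83, against 15.4%. Within a harvest, the median of T12h minus C12h was -2.20 in A, -1.81 in B and -2.73 in C, and at 24 h the median of T24h minus C24h was -2.52 in A and -2.34 in C. In these 5 pairs, each 1 library against 1, the rule fixed that every member was lower in the treated library, so that their direction is no evidence for the harvest. In harvest B the median was 0.40 and 48 of 171 genes were lower in T24h B than in C24h B. That pair is the only one set against the control library that the rule left out.

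The controls were not level either, and this the rule did not fix. C0h A was the lowest of the 8 controls for 114 genes (66.7%), against 19.3% of all genes tested, and the median member lay 0.66 below the control mean there. The next lowest was C12h B, at -0.33, and in 71 genes these were the lowest pair. C0h C was highest at 0.32. From 0 to 12 h without ethylene, 167 of the 171 genes were higher at 12 h in harvest A (median 0.90), 135 were lower in harvest B (median -0.50) and 98 were lower in harvest C (median -0.11), where the medians of all genes tested lay between -0.02 and 0.03. Each of these compares 1 pool of fruit with 1 other, so that the genes are not replicates of a change. Over the group means, the median of C12h minus C0h was 0.16, and -0.17 without C0h A. The spread of the members among the 8 controls, as a log2 SD, had a median of 0.48, against 0.31 for all genes tested. Without C0h A, the same rule found 231 genes, all 171 among them.

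**Figure D4:**
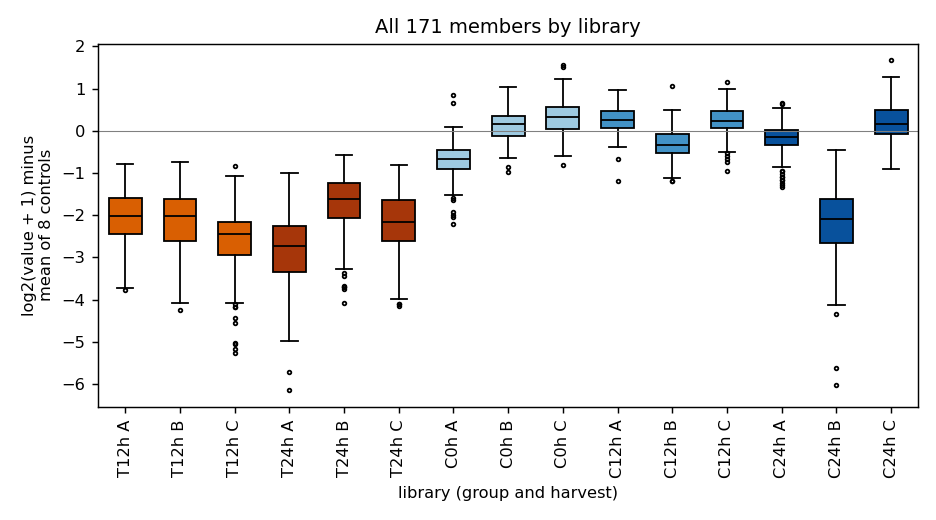
Boxes show the 171 genes in each library as log2(value + 1) minus the mean of 8 controls, with the median as a line, quartiles as box ends, whiskers to the last gene within 1.5 box lengths and points beyond them; treated groups stand on the left. Medians run from -2.72 (T24h A) to -1.61 (T24h B) in treated libraries and from -0.66 (C0h A) to 0.32 (C0h C) in 8 controls, and C24h B is at -2.10.

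Contrasts between control groups were tested, since the rule did not compare these groups with each other. It did use the lowest value and the mean of the 8 controls. A gene that was low in any of these libraries was therefore less likely to be chosen. The choice thus limits how many members could differ between control groups. With limma over the 14 libraries without C24h B, 0 of 171 members passed an adjusted p of 0.05 between C12h and C0h, between C24h and C0h or between C24h and C12h, as did 0 of all 15270 genes (0%). An unadjusted p of 0.05 was passed by 5 members that were higher in C12h than in C0h (4.2% of all genes tested) and by 0 that were lower (5.76%). In C24h against C0h it was passed by 3 that were higher (2.98%) and 1 that was lower (3.74%), and in C24h against C12h by 0 that were higher (0.609%) and 0 that were lower (0.845%). The edgeR test on reads called 0 members in each contrast. At an unadjusted p of 0.05 it passed 8, 10 and 1 members, against 1603, 1077 and 255 of all 15270 genes. DESeq2 passed 9, 11 and 1 members at an unadjusted p, against 1589, 1048 and 222 of all genes. At an adjusted p, DESeq2 called 2, 0 and 0 members, against 0.419%, 0.0655% and 0% of all genes. Both genes that DESeq2 called were higher in C12h than in C0h, a call it made for 0.295% of all genes tested. ABCB19 had 91.2, 75.8 and 82.8 normalized counts in C12h A, B and C, against 44.3, 29.5 and 38.5 in C0h. Its log2 difference was 1.15 (SE 0.35, adjusted p = 0.403 from limma), with an adjusted p of 0.0273 from DESeq2. LOC110822967 had 277, 324 and 186 in C12h, against 72.5, 117 and 88.4 in C0h, a log2 difference of 1.48 (SE 0.35, adjusted p = 0.337 from limma), with an adjusted p of 0.0024 from DESeq2. Both were higher at 12 h in 3 of 3 harvests, and the share of all genes with this pattern was not counted. The contrasts with C24h depend on C24h B, which was left out with its likeness to treated fruit known. With it, limma again called 0 members and 0 genes. The median of C24h minus C0h then became -0.62, against 0.10 without it, with 155 of 171 members lower, and 11 members were lower at an unadjusted p of 0.05 (3.01% of all genes tested) and 0 higher (3.26%). The median of C24h minus C12h became -0.78, against -0.03 without it, with 169 members lower, and 9 were lower at an unadjusted p (1.98%) and 0 higher (1.61%).

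C24h B, the control library that the rule set aside, held the members at the level of treated fruit. It lay below all 8 other controls for 167 of the 171 genes (97.7%), and 27.7% of all genes tested were below all 8 there, with 27.0% above them. On a scale with the control mean at 0 and the treated mean at 1, its median position was 0.94 (quartiles 0.775 and 1.14), and 69 genes were past the treated mean. The 206 genes that the mirrored rule found to be raised and kept high had a median position of 1.02, and 203 of them were above all 8 controls in C24h B. Of the 130 genes that had come back up by T24h, 41 were below all controls in C24h B (31.5%), and 126 lay nearer the T24h mean than the T12h mean. These genes were chosen with T12h below both the controls and T24h. A library at the control level could therefore also lie nearer T24h, and no likeness is read from the 126. C24h B is 1 library, so that no test is given, and it was left out of the rule with its likeness to treated fruit already known. C24h B was also the shallowest library, with 57 members at 10 reads or fewer.

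Single members show the same with exceptions. PUM12 had 7.54 normalized counts in C24h B, within the 1.21 to 11.9 of treated libraries. CBL10 had 24.1 there, GAE6 362 and TBL38 109, also within the treated range. The position was nearest to the other controls for LOC110820121 (0.23, at 106 normalized counts), HK1 (0.28, at 22.6), LOC110822541 (0.42, at 80.0) and HVA22A (0.47, at 228). The 4 genes farthest past the treated mean were LOC110812041 (2.06), LOC110818416 (1.90), LOC110813072 (1.88) and LOC110809763 (1.87). LOC110812041 and LOC110818416 had 0 reads in C24h B, which allows up to 4.53 normalized counts (3 reads, for counting error only), and their positions depend on the 1 that was added before taking logs. SIG2, at 6.04 in C24h B, lay below every treated library, of which the lowest held 11.5. In 151 of the 171 genes C24h B was at or below the highest treated library, as for 89.5% of all genes tested.

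**Figure D5:**
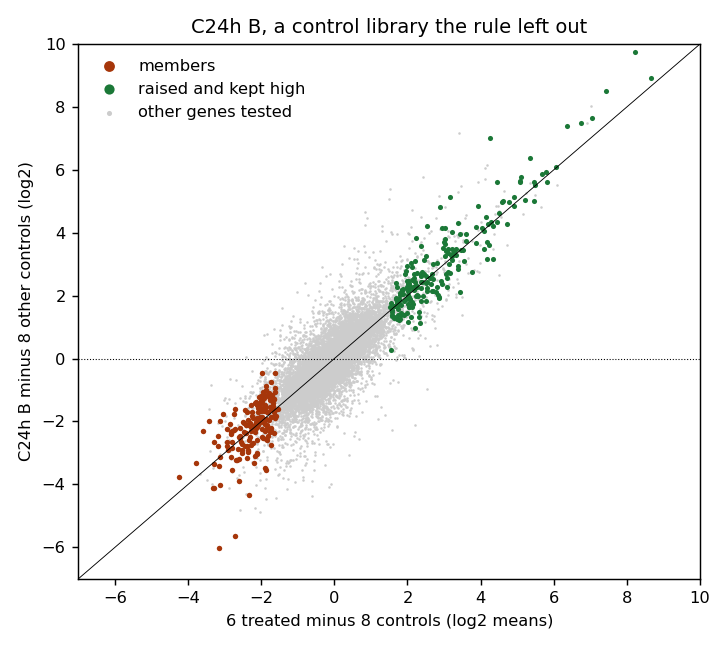
For 15270 genes, the log2 difference of C24h B from the mean of the other 8 controls (vertical) is plotted against that of the 6 treated libraries from the same mean (horizontal), with the 171 genes in red, 206 genes raised and kept high in green and the line of equal differences. Of the red points 167 belong to genes with C24h B below all 8 controls, at a median difference of -2.10, and the 2 lowest are the genes with 0 reads in it.

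Both ethylene contrasts were used by the rule, and their counts say nothing further about the members. In T12h against C12h, 170 of 171 members were called lower by limma, as were 17.2% of all genes tested, and in T24h against C24h without C24h B 159 members, against 11.4% of all genes. With C24h B among the controls, limma called 0 genes in the 24 h contrast, and 127 members were lower at an unadjusted p of 0.05, against 9.25% of all genes. Without harvest C, 33 members were called at 12 h, against 1.97% of all genes in either direction. The member medians were then -1.92 at 12 h and -1.98 at 24 h, against -2.12 and -2.24 with harvest C. Without C24h C alone the median at 24 h was -1.98. Genes of the pathways to which members belong were counted in the same fits from lists of gene symbols, with an adjusted p of 0.05 as the limit. The lists include the members, whose fall the rule fixed, and this adds to the falls. The remaining genes of a list were not counted apart, so the counts say nothing about a pathway beyond its members. Of all genes tested, 17.2% fell and 16.7% rose at 12 h, and 11.4% fell and 12.2% rose at 24 h. Of 24 auxin genes, 9 fell and 4 rose in T12h against C12h, and 4 fell and 0 rose in T24h against C24h, with median log2 differences of -0.43 and -0.47 where those of all genes were -0.01 and -0.00. ABCB19 and IAA11 are the members among them. Of 42 genes of chlorophyll synthesis and photosynthesis, 8 fell and 2 rose at 12 h and 8 fell and 4 rose at 24 h, with medians of -0.51 and -0.21, and PSAN, GLK2 and SIG2 belong to the list. Light and clock genes gave 13 falls and 6 rises of 46 at 12 h and 12 and 6 at 24 h, with PHYD and NPH3 as members.

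Cell wall genes gave 17 falls and 16 rises of 74 at 12 h and 9 and 11 at 24 h, near the shares over all genes, with TBL38, GAE6 and PME31 as members. Regulators of growth gave 20 falls and 9 rises of 71 at 12 h and 14 and 8 at 24 h, with IDD12 and LBD25 as members. Of 15 aquaporins, 2 fell and 2 rose at 12 h and 3 fell and 1 rose at 24 h, PIP2;8 being the member. Of 21 genes listed under cytokinin, HK1 among them, 5 fell and 1 rose at 12 h and 4 fell and 1 rose at 24 h. The other 13 lists, which cover among others ethylene, gibberellin, abscisic acid, sugars and phenylpropanoids, held 0 members. These lists did not share a direction. Transport of ions and nitrogen gave 3 falls and 7 rises of 47 at 12 h and 0 and 8 at 24 h. Heat shock factors and chaperones gave 7 falls and 4 rises of 26 at 12 h and 4 and 2 at 24 h.

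The lists of other tissues were read beside these values. Of 19 seed markers 4 were in the table, none with a mean of 5 or more, and their sum was 0 to 5.55 normalized counts in treated libraries and 0 to 4.20 in 8 controls, with ABI3 at 0 in every library. Of 21 peel markers 11 were in the table, at a sum of 8799 to 10748 in T12h, 9456 to 11799 in T24h and 7795 to 9874 in 8 controls, most of it from FDH. That symbol can stand for FIDDLEHEAD, a gene of the epidermis also called KCS10, or for formate dehydrogenase, and KCS10 is listed apart from it. The other 10 peel markers summed to 541 to 948 in T12h, 576 to 830 in T24h, 324 to 462 in 8 controls and 676 in C24h B. Among them LACS2, a long-chain acyl-CoA synthetase of cutin, had 101 to 375 in T12h and 240 to 413 in T24h, against 42.9 to 117 in controls. ABCG11, an exporter of cuticular lipids, had 40.1 to 127 in T12h and 15.1 to 54.2 in T24h, against 1.74 to 12.8. Of the 10, only ABCG11 lay above the controls at both times. LCR, ABCG32, GPAT6, KCS1 and CER3 overlapped the controls at both times. LACS2, CYP86A8 and KCS10 overlapped them in T12h only, and PDF2 in T24h only. Of 18 green tissue markers 7 were in the table, at 707 to 1014 in T12h, 594 to 1163 in T24h and 945 to 1725 in controls, most of it from PSAF. Of 14 vascular markers 7 were in the table, at 5917 to 8777 in T12h, 885 to 5547 in T24h and 60.9 to 699 in controls, nearly all of it from IRX3, with SEOR1 at 0 in treated libraries. XCP1 also lay above the controls, at 16.7 to 31.1 in T12h and 33.9 to 112 in T24h, against 4.06 to 15.7. IRX1, APL, CESA4 and VND7 overlapped the controls at both times. The vascular sum, nearly that of IRX3 alone, and that of the 10 peel markers were thus higher in every treated library than in the 8 controls. The green sums overlapped, with the lowest in treated fruit. None of the markers is a member, and their part in the members' values was not tested.

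Members near the thresholds show how thin the borders are. The smallest separations were 0.0065 for LOC110823923 and 0.0068 for LOC110821974, and LOC110823553 missed it by 0.0090. At T12h, LOC110808209 was 1.501 and PPC4 1.515 below the controls, while LOC110817126 was left out at 1.49. At T24h, LOC110809283 was kept with 1.51 and LOC110811263 was left out with 1.49. TBL38, with 1.47 between T12h and T24h, was inside and PPC2, another phosphoenolpyruvate carboxylase, with 1.60 was outside. LBD25, with a mean of 20.4 normalized counts, was inside, and BRXL4 and FDC1, each at 19.1, were outside. The genes that failed a single criterion numbered 59 for the separation, 96 for T12h, 76 for T24h, 52 for the mean and 4 for the difference between the times.

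In the order of genes in the reference annotation, which is of another assembly than the one the reads were aligned to, 3 pairs of members stood next to each other. They were LOC110821772 (-2.44) with LOC110821832 (-3.29), LOC110806712 (-2.79) with LOC110806730 (-1.66) and NAKR3 (-2.11) with TRM19 (-1.85), the log2 difference of treated and control means in brackets. Their annotated spans did not overlap.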

How the data were processed

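Pulp RNA was measured in 15 stranded libraries, 3 for each of 5 groups. The authors cleaned reads with SeqyClean 1.10.09, inspected their quality with FastQC 0.11.8, aligned them to Papaya1.0 with STAR 2.6.0a and normalized gene counts with DESeq2 1.20.1; the counting tool and its strand setting are not given in the sources used here, so overlapping antisense genes may share reads. As deposited by the authors, a signal value is a count divided by the size factor of its library; the values were used unchanged. In all 15 libraries they were whole multiples of a step (tolerance 0.001). Reads entered count tests for 12 libraries only: C24h B was left out throughout, and T12h B and T24h B, whose step is near 1, because a check of units did not take them as recovered reads.

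Members, lists and tests were chosen with earlier results of these data known. Contrasts were fitted by limma 3.58.1 (variance trend, R 4.3.3) to log2(value + 1) of the 15270 genes averaging 5 or more, in 1 fit of 14 libraries, with Benjamini-Hochberg adjustment. edgeR 4.0.16 and DESeq2 1.42.0 were alternatives on reads, beside TMM and quantile scaling, pseudocounts of 0.5 and 5, other filters, the harvest as a block and leaving out libraries and harvests. The limma fit was tried on simulated counts for the contrast of C12h with C0h, with the same dispersion for every gene. That trial does not cover the other tests and contrasts. Named genes were the 8 largest differences, the 8 highest control means, members with a symbol, those nearest each threshold, those at the ends of the C24h B scale and neighbours; the other genes called only by a count tool or at the ends of a span were named with their values known. Symbols were taken from a RefSeq table of another assembly (ASM5485532v1), used for names and gene order alone, so no coordinates or sequences are given. P-values measure the spread between pools.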

Additional observations from a re-analysis of the deposited data

How the results depend on the processing

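The number of genes that the rule found was 171 and became 17 with C24h B among the controls, 428 at a difference of at least 1, 66 at a difference of at least 2, and 136 (without T24h A) to 259 (without T24h B) when single libraries were left out. TMM scaling gave 177 genes, with all 171 among them, and quantile normalization 130, of which 118 were shared. Between control groups, 60 of 61 settings called 0 members; DESeq2 called 2 between C12h and C0h, and over all genes 64 in that contrast and 10 between C24h and C0h, where limma called 0. In T12h against C12h, the 170 members called became 33 without harvest C, and the 5180 calls over all genes became 301, with 2983 without C12h C, 3275 without C12h A and 3085 without harvest B. In T24h against C24h, the 159 members called became 92 with only the 2 groups in the fit, 5 without harvest C and 0 with C24h B, and ranged from 51 (without C24h C) to 161 (without T24h B). The 3601 calls over all genes became 863, 68 and 0 in these settings, 653 without C24h C, 2397 without harvest A and 2364 without harvest B. After subtraction of group means, the median correlation of libraries was small within a harvest and between harvests (r 0.0252 over 26 pairs, against -0.0183 over 52). Single pairs ran from -0.446 to 0.439 within a harvest and from -0.477 to 0.535 between harvests. With the replicate block limma called 170 members at 12 h and 158 at 24 h, against 170 and 159 unpaired. Over all genes the block gave 5012 and 3313 calls, against 5180 and 3601 unpaired. The rule used both contrasts, so the member counts say little about the block. With a pseudocount of 5, GLK2 was at -2.28, NPH3 at -1.98 and LBD25 at -1.55. Of the other single-gene values (149 of 152), each kept its direction within the spread of the controls. Members near 1 to 10 reads are limited by depth.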
